A study of Homo sapiens with 5 samples.

Results

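The cluster of miR-371, miR-372 and miR-373 was followed through 4 probes, hsa-miR-371-5p, hsa-miR-371-3p, hsa-miR-372 and hsa-miR-373, chosen by exact probe name out of 734 miRNA probes. The assay was NanoString's nCounter Human v2 miRNA kit, which tags each target with a fluorescent barcode and counts the barcodes without amplification. The cells were Caco2, an established line from a human colorectal adenocarcinoma whose cells polarise into an epithelial layer. They had been infected and selected with either a non-target shRNA (NT, n = 2, replicates 1 and 3) or an shRNA against PLEKHA7 (n = 3, replicates 1, 2 and 3). PLEKHA7 is a protein of the epithelial adherens junction, and the comparison asks how its depletion affects miRNA levels. Per the series' design, RNA came from separate sets of infections. Which shRNA sequence was used is not given in the sources used here. Groups were taken from the sample titles, because the source field of shPLEKHA7 replicates 2 and 3 carries another PLEKHA gene number. The panel has no PLEKHA7 probe, so the knockdown itself was not checked.

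Like other miRNAs, those of this cluster act as guides that pair with messenger RNAs through bases 2 to 8, the seed, and lower the output of their targets. The cluster is best known from human pluripotent stem cells and germ cell tumours, where it is abundant. Its main products share a seed type with the miR-302 and miR-17 families, which are linked to cell cycle progression. miR-372 and miR-373 are known for repressing the tumour suppressor kinase LATS2 and have been studied as oncogenic miRNAs.

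The deposited target sequences of all 4 probes matched RefSeq mature miRNAs exactly (GRCh38.p14). They are shown because the grouping of the results rests on their seeds, which are in capitals:
miR-371-5p: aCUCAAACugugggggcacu
miR-371-3p: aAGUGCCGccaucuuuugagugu
miR-372: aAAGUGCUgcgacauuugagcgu
miR-373: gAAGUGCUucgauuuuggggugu
miR-372 and miR-373 have the same seed, AAGUGCU, and are identical at 16 of 23 positions. miR-371-3p carries the same AAGUGC run 1 base nearer its 5′ end, so its seed is AGUGCCG, and it matched miR-372 at 13 positions. miR-371-5p comes from the opposite arm of the miR-371 hairpin and has an unrelated seed, CUCAAAC. No other human probe of the panel had the seed of miR-371-3p or that of miR-371-5p.

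The 3 hairpins lie on the plus strand of chromosome 19 within 1099 bases (GRCh38.p14), and the RefSeq lncRNA gene LOC124904767 overlaps that span. They are shown with the arms that the panel measures in capitals:
MIR371A, chr19:53787675-53787741: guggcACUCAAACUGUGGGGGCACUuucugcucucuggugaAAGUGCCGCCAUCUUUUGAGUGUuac
MIR372, chr19:53787890-53787956: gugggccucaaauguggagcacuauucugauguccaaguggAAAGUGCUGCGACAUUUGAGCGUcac
MIR373, chr19:53788705-53788773: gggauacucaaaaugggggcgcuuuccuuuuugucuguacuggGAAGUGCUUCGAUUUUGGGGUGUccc
MIR372 starts 148 bases after MIR371A, and MIR373 starts 748 bases after MIR372. Both arms of the miR-371 hairpin are measured, whereas of miR-372 and miR-373 the 3′ arm alone is. MIR371B, an annotated miRNA gene on the minus strand, overlaps MIR371A. Its mature products pair with 20 bases of miR-371-5p and 21 bases of miR-371-3p by position, and neither is on the panel. The nearest protein-coding gene on the far side of MIR373 is NLRP12, 4811 bases away.

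A lane held 32138 to 58298 miRNA counts in all. The detection limit, the mean plus 2 SD of a lane's negative-control probes, ran from 11.0 to 24.5 counts. Markers of epithelium (the miR-200 family) and of intestine (miR-192, miR-194 and miR-215) were above the limit for 7 or 8 of 8 probes in each lane. Together they took 4.44% to 5.0% of miRNA counts. Blood markers, with 2 or 3 of 5 probes above the limit in each lane, took 0.233% to 0.292%. Stromal and vessel markers, also with 2 or 3 of 5, took 0.206% to 0.273%. Placental markers, with 2 of 6 in each lane, took 0.270% to 0.436%. If the running numbers in the column headers are lane positions, NT lanes came before shPLEKHA7 lanes, and position and group cannot be told apart.

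The cluster was among the most counted miRNAs of these cells. Its 4 probes together took 12.1% (95% Wilson interval 11.7 to 12.4) of miRNA counts in NT replicate 1 and 12.7% (12.4 to 13.0) in NT replicate 3. In shPLEKHA7 cells they took 11.7% (11.4 to 11.98), 10.5% (10.2 to 10.9) and 11.4% (11.1 to 11.6) in replicates 1, 2 and 3. The shPLEKHA7 lanes were all lower, 1.19 percentage points on average, and the intervals of NT replicate 1 and shPLEKHA7 replicate 1 overlapped. With the negative-control background subtracted the groups overlapped, at 13.3% and 13.9% in NT and 13.5%, 11.5% and 12.5% in shPLEKHA7 cells. These intervals cover counting error only.

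By raw count, miR-373 ranked 3 or 4 among all miRNA probes in every lane and miR-372 ranked 5 to 7. miR-371-3p ranked 13 to 16 and miR-371-5p 27 to 33. Even the least counted member stood at 10.6 to 17.0 times the detection limit, and miR-373 at 106 to 145 times. Probes differ in how well they capture their targets, so the order of the 4 is an order of counts, not of molecules.

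In the fit across all tested probes, edgeR's quasi-likelihood test on TMM-scaled counts called 13 of 204 probes at a Benjamini-Hochberg adjusted p under 0.05 (6.37%, of which 2.45% higher and 3.92% lower in shPLEKHA7 cells). None of the 4 members was among them, and 0 of the 4 had an unadjusted p under 0.05, beside 23.5% of all tested probes. miR-372, miR-373 and miR-371-3p had log2 fold changes below 0 and miR-371-5p above 0, with a median over the 4 of -0.13 beside 0.059 over all tested probes. Such values are relative to the other tested miRNA probes of a lane, and in bulk samples fewer expressing cells and less of a miRNA per cell cannot be told apart. DESeq2 also called 0 of 4, beside 11 of 204 probes (5.39%), with an unadjusted p of 0.0489 and an adjusted p of 0.172 for miR-372.

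With all lanes kept, miR-372 had the largest difference of the 4. Its TMM-normalized counts were 2024 and 2475 in NT replicates 1 and 3, against 1847, 1613 and 1979 in shPLEKHA7 replicates 1, 2 and 3. Every shPLEKHA7 lane was below both NT lanes, though replicate 3 lay close to NT replicate 1. The means were 2250 ± 319 (SD, n = 2) and 1813 ± 186 (SD, n = 3), and the log2 fold change was -0.31 (SE 0.14, edgeR adjusted p = 0.223). Its 95% interval ran from -0.64 to 0.015, or from 0.643 to 1.01 times the NT level. Without NT replicate 3, its highest lane, the log2 fold change was -0.11, smaller than the 0.36 of miR-371-5p in that fit, and without NT replicate 1 it was -0.45.

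miR-373, the neighbour with the same seed, had TMM-normalized counts of 2442 and 2619 in NT replicates 1 and 3, against 2353, 2107 and 2210.0 with shPLEKHA7. The groups did not overlap here either, with means of 2531 ± 125 and 2223 ± 123.2. The log2 fold change was -0.19 (SE 0.12, edgeR adjusted p = 0.4, 95% interval -0.46 to 0.089).

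miR-371-3p was nearly level, at 693 and 689.96 TMM-normalized counts in NT and 678, 677 and 621 in shPLEKHA7 cells. Its groups did not overlap, but the nearest lanes of the 2 groups lay within 12.4 counts. The log2 fold change was -0.072 (SE 0.12, edgeR adjusted p = 0.757, 95% interval -0.35 to 0.20). Non-overlapping groups were found for 48% of all tested probes, and 22.1% had shPLEKHA7 below NT without overlap. Of the 4 members 3 were of the latter kind, a count that was not tested.

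miR-371-5p, the other arm of that hairpin, stood at 185 and 239.7 TMM-normalized counts in NT and at 236, 257 and 206 in shPLEKHA7 cells. The groups overlapped, and the spread between the NT lanes was as wide as that among the shPLEKHA7 lanes. The log2 fold change was 0.12 (SE 0.16, edgeR adjusted p = 0.732, 95% interval -0.25 to 0.49). It turned to -0.049 without NT replicate 1, to -0.23 under spike-in scaling and to -0.056 with no filter on low counts. Relative to the median of all tested probes it was 0.058 under TMM and 0.046 under spike-in scaling, so that its sign there followed a shift common to all probes.

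**Figure D1:**
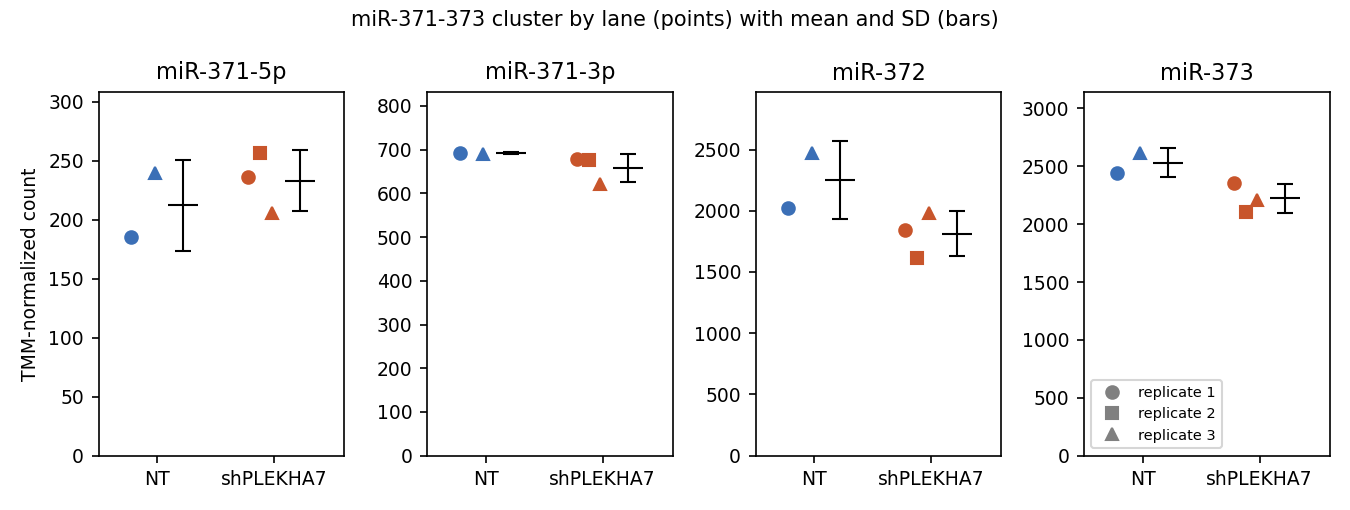
TMM-normalized counts (y axis, from 0) of the 4 cluster probes in each lane, by group, with replicate numbers as symbols and the group mean ± SD beside the points. miR-372 and miR-373 lie lower in all 3 shPLEKHA7 lanes, miR-371-3p is nearly level and miR-371-5p overlaps.

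How far the cluster appeared to move depended on the scaling. As a share of all miRNA counts, miR-373 took 5.51% and 5.53% in NT, against 5.38%, 4.77% and 5.01% in shPLEKHA7 replicates. In the deposited normalized signal, which sets the mean of the panel's housekeeping mRNAs equal, miR-373 stood at 2362 and 3028 in NT and at 2414, 1741 and 2626 in shPLEKHA7 cells. The groups of all 4 members overlapped on that scale. The log2 fold changes with it in edgeR were -0.37 (SE 0.33) for miR-372 and -0.25 (SE 0.33) for miR-373.

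Counted per 1000 positive-control spike-in counts, synthetic targets added in set amounts, miR-372 stood at 208 and 247 in NT and at 144, 110.0 and 184 in shPLEKHA7 cells. miR-373 stood at 251 and 261 against 184, 144 and 205, and miR-371-3p at 71.2 and 68.9 against 53.0, 46.2 and 57.7. All 3 were without overlap, as were 34.3% of tested probes with shPLEKHA7 lower on this scale. In edgeR with spike-in scaling miR-372 was at log2 -0.64 (SE 0.26, unadjusted p = 0.0159, adjusted p = 0.0856) and miR-373 at -0.53 (SE 0.26, adjusted p = 0.184). None of the 4 was called, while 29 of 204 probes (14.2%) were called lower. The median of all tested probes was -0.27 there, and relative to it miR-372 was lower by a like amount as under TMM. A lane-wide scaling shifts all probes nearly alike, so this likeness follows from the scaling and is not support for a difference.

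**Figure D2:**
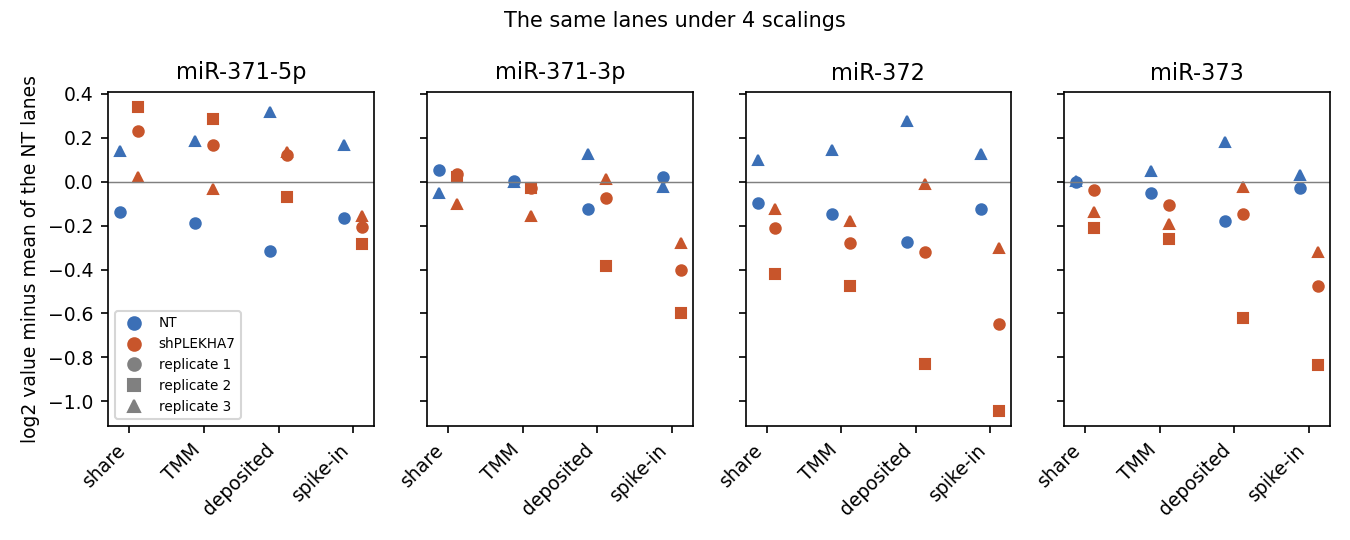
Log2 value of each lane minus the mean of the NT lanes (y axis) for the 4 probes under 4 scalings (x axis): share of miRNA counts, TMM, the deposited normalized signal, and counts per spike-in count. shPLEKHA7 replicate 2 is the lowest lane for miR-372 and miR-373 in all 4, and the groups of miR-371-5p overlap in all 4.

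Ratios within a lane do not depend on any lane-wide scaling and show whether the members moved apart. miR-372 was counted 0.829 and 0.945 times as often as miR-373 in NT replicates, against 0.785, 0.765 and 0.896 times in shPLEKHA7 replicates. The mean log2 ratio differed by -0.12 with a pooled SD of 0.13 between replicates, and by -0.22 without NT replicate 1 and -0.027 without NT replicate 3. The ratio of miR-371-3p to miR-373 was 0.284 and 0.263 in NT and 0.288, 0.321 and 0.281 in shPLEKHA7 cells, a log2 difference of 0.12 with a pooled SD of 0.095. This difference was 0.062 without NT replicate 3 and 0.057 without shPLEKHA7 replicate 2. The arms of the miR-371 hairpin, 5p to 3p, stood at 0.267 and 0.347 in NT and at 0.349, 0.379 and 0.331 in shPLEKHA7 cells, a log2 difference of 0.21 with a pooled SD of 0.17.

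The groups overlapped in all 3 ratios, and each gave a 2-sided exact permutation p of 0.4 over the 10 splits of 2 against 3 lanes (adjusted p = 0.4 over the 3 ratios, the smallest possible p being 0.1). The difference in the arm ratio rested on NT replicate 1. It was 0.021 without that lane and 0.40 without NT replicate 3.

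**Figure D3:**
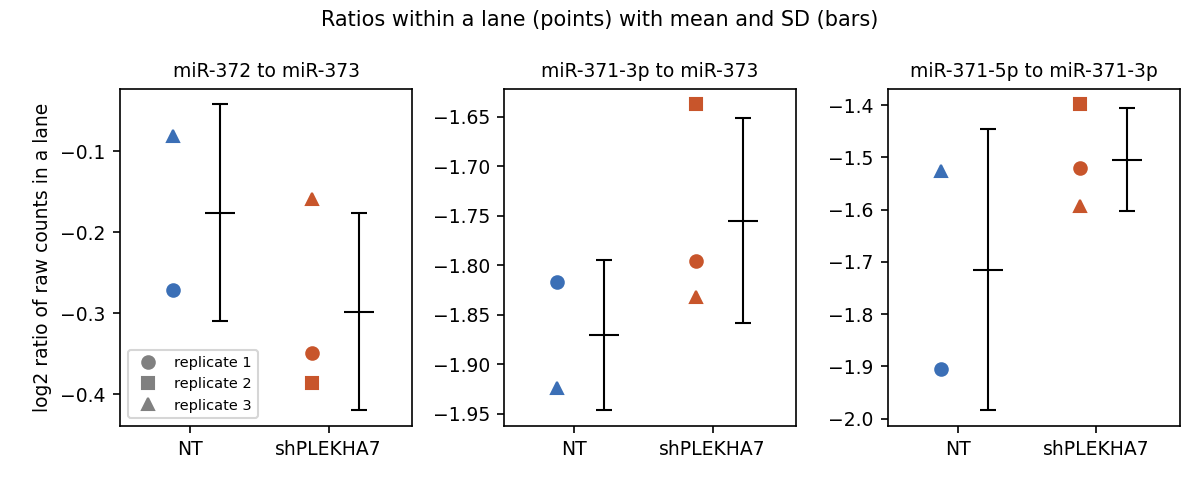
Log2 ratio of raw counts within each lane (y axis) for 3 pairs of cluster probes, by group, with replicate numbers as symbols and the mean ± SD beside the points. NT and shPLEKHA7 lanes overlap in all 3 pairs, and the lowest arm ratio of miR-371 is that of NT replicate 1.

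Other miRNAs of the panel share the cluster's seed type. The run AAGUGC was found within bases 1 to 8, on the mature strand alone, in 23 of 654 human probes (3.52%), of which 20 lie outside the cluster. They include the miR-302 cluster, a hallmark of pluripotent stem cells, the miR-17 family, which promotes proliferation, and 11 probes of C19MC, a placental cluster on the same chromosome. The nearest of the latter, miR-520d-3p, lies 67504 bases before MIR371A (GRCh38.p14). Some of these 20 relatives are shown with their seeds in capitals:
miR-302a: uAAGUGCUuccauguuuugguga
miR-302b: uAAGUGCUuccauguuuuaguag
miR-302c: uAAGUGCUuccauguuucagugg
miR-302d: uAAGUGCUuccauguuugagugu
miR-20a (joint probe with miR-20b): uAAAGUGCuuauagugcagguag
miR-93: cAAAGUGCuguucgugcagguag
miR-520a-3p: aAAGUGCUucccuuuggacugu
The miR-302 and miR-520 seeds shown equal those of miR-372 and miR-373, and outside the seed miR-302a matched miR-373 more than miR-372 (17 and 14 identical positions of 23 in all). The miR-17 family reads the run 1 base later.

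Of the 20 relatives 8 were tested. Of these, miR-302c and miR-302d were above the detection limit in the 3 shPLEKHA7 lanes alone and passed the filter through that group, so that no count or median over the 8 is drawn on. The other 6 were above the limit in all lanes, as were 127 probes in all. In the fit limited to those probes all 6 had log2 fold changes above 0, as did 54.3% of the 127, and their median was 0.30 beside 0.059. edgeR called 1 of the 6, miR-302a (log2 0.97, adjusted p = 0.0415), and 1.57% of the 127 were called higher. The direction was not kept for all 6, since under spike-in scaling, which lowered the median of all tested probes to -0.27, the miR-17 family was below 0. With no filter 2 miR-17 family probes were below 0, and 1 was in limma and without NT replicate 3 or shPLEKHA7 replicate 3.

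In the fit of all 204 probes miR-302a went from 38.0 and 34.8 TMM-normalized counts in NT to 73.0, 79.7 and 55.9 in shPLEKHA7 cells (log2 0.92, SE 0.22, adjusted p = 0.0399). miR-302d, which passed the filter through the shPLEKHA7 lanes, went from 12.7 and 16.9 to 31.9, 33.0 and 34.0 (log2 1.13, SE 0.25, adjusted p = 0.0317). Its NT raw counts of 10 and 18 were below both lanes' limits. For miR-302d, unlike miR-302a, the size of the difference is therefore not measured and the call is not drawn on. Neither was called under the deposited or the spike-in scaling, with no filter on low counts, by limma, or without either NT lane. miR-302d also missed the threshold without shPLEKHA7 replicate 3 (adjusted p = 0.0759) and had no adjusted p in DESeq2.

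miR-302b missed the threshold at log2 0.75 (SE 0.25, adjusted p = 0.115) but was called with total-count scaling (0.82, edgeR adjusted p = 0.0455). miR-302c, at 9 and 20 raw counts in NT, both below the limit, was at 0.42 (SE 0.33, adjusted p = 0.515). miR-367, which shares their transcript but not their seed, was not tested, at 5 to 10 raw counts. The summed count of the 5 pluripotency markers miR-302a to miR-302d and miR-367 was 0.228% to 0.235% of miRNA counts in NT and 0.376% to 0.485% in shPLEKHA7 lanes. Its part in the cluster's values was not tested. The sum includes miR-367, below the limit in every lane, and miR-302c and miR-302d, below it in NT, so no difference between the groups is read from it.

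All 4 probes of the miR-17 seed family were tested and 0 were called, with a median of 0.15. It was 0.30 without NT replicate 1 and 0.095 under the deposited scaling. The probe shared by miR-20a and miR-20b, the most counted of them, stood at 1994 and 1788 TMM-normalized counts in NT and at 2186, 2221 and 2366 in shPLEKHA7 cells (log2 0.26, SE 0.12, adjusted p = 0.245). miR-93, miR-106b and the joint miR-106a and miR-17 probe were at log2 0.24, 0.056 and 0.063. The last ran from -0.21 without NT replicate 3 to 0.41 without NT replicate 1. Under spike-in scaling all 4 were below 0, with a median of -0.18. Relative to the median of all tested probes theirs was 0.093 under TMM and 0.091 there, a likeness that follows from lane-wide scaling. Of the 11 C19MC relatives 0 were tested. Their raw counts ran from 2 to 18, and no probe exceeded the limit in more than 1 lane.

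**Figure D4:**
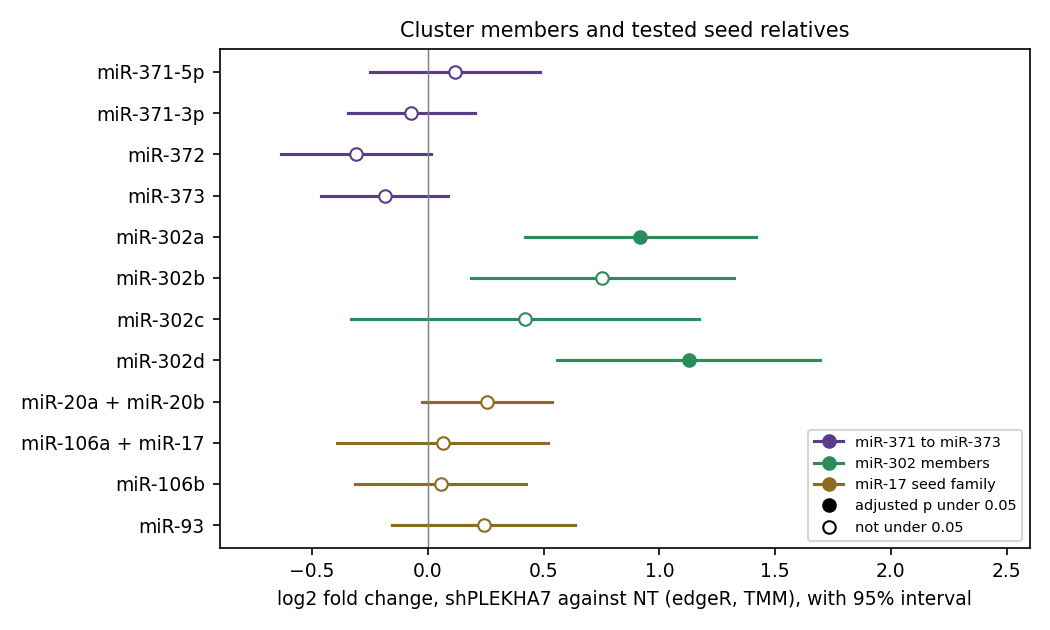
Log2 fold change of shPLEKHA7 against NT (x axis) with its 95% interval from the edgeR fit for the 4 cluster probes and the 8 tested seed relatives. Filled circles mark an adjusted p under 0.05, which miR-302a and miR-302d alone reached, the latter having passed the filter through the shPLEKHA7 lanes. The call of miR-302d is therefore not drawn on. miR-372 at -0.31 and miR-302d at 1.13 mark the ends.

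Because miR-302a was picked for its change, its ratios to the members were set out after the values had been seen. Per miR-373 count, miR-302a was counted 0.0156 and 0.0133 times in NT, against 0.0310, 0.0378 and 0.0253 times in shPLEKHA7 replicates, a log2 difference of 1.11 with a pooled SD of 0.25. Against miR-372, miR-371-3p and miR-371-5p the differences were 1.23, 0.99 and 0.78. All 4 ratios share miR-302a, which was picked for its change, so they are given as a description and no test of them is drawn on.

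Most counts on probes with the seed of miR-372 and miR-373 were on these members in every lane. Of all counts on the 12 probes with the seed AAGUGCU, miR-372 and miR-373 held 97.1% in both NT lanes (95% Wilson intervals 96.5 to 97.6 and 96.7 to 97.6). They held 94.8% (94.1 to 95.4), 93.6% (92.7 to 94.4) and 95.4% (94.9 to 95.9) in shPLEKHA7 replicates 1, 2 and 3. These intervals cover counting error within a lane only. The miR-302 probes held 2.20% and 2.10% in NT and 4.06%, 5.25% and 3.81% in shPLEKHA7 lanes, and the miR-520 probes 0.716% to 1.15%, all at background counts. Among the miR-302 probes, miR-302e was below the detection limit in every lane and miR-302c and miR-302d in both NT lanes. No difference between the groups is therefore read from the miR-302 share. Nor is one read from the share of miR-372 and miR-373, which is what the miR-302 and miR-520 shares leave. The 12 probes together took 10.4% and 11.1% of miRNA counts in NT and 10.1%, 9.0% and 9.96% in shPLEKHA7 lanes. These are shares of counts across probes of unequal capture, given as a description with no test.

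**Figure D5:**
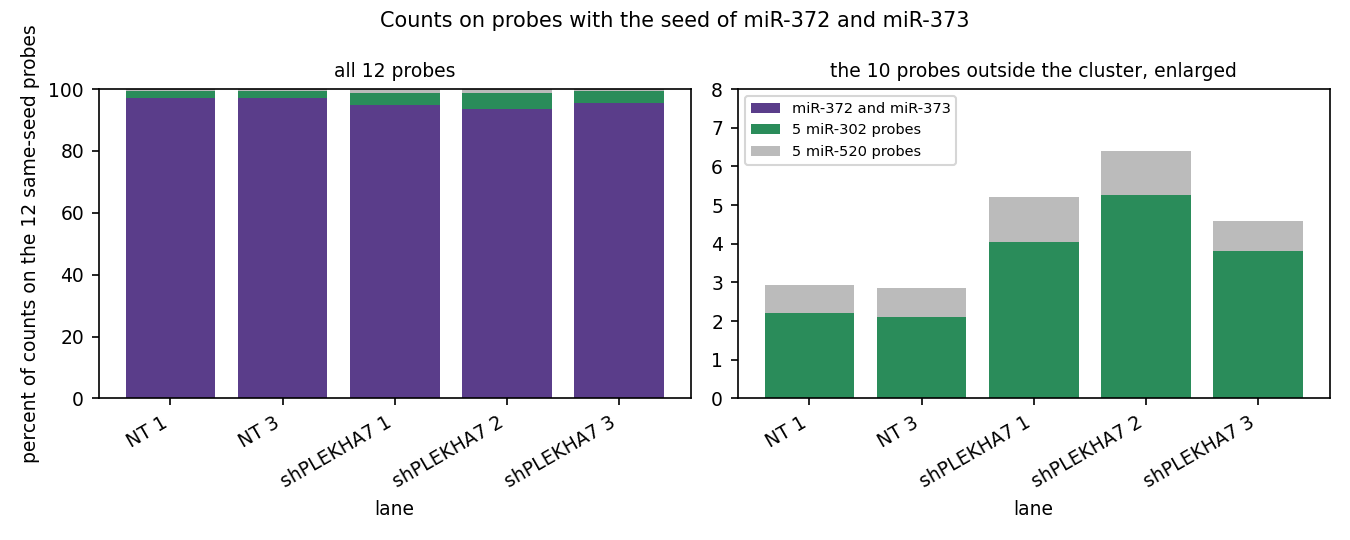
Percent of the counts on the 12 probes with the seed of miR-372 and miR-373 (y axis) in each lane, split into miR-372 and miR-373, 5 miR-302 probes and 5 miR-520 probes. The right panel enlarges the 10 probes outside the cluster. miR-372 and miR-373 hold 93.6% to 97.1%. The miR-302 part includes probes below the detection limit in the NT lanes. No difference between the groups is read from it or from the part of miR-372 and miR-373, which it reduces.

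The tested probes whose lane pattern came nearest to the cluster's were miR-200c, miR-107, miR-423-5p, miR-26a and miR-16. Nearness was the root mean square distance, over the 5 lanes, between centred log2 TMM-scaled counts and their mean over the 4 members. It was 0.072 for miR-200c, an epithelial miRNA, and 0.097, 0.098, 0.10 and 0.11 for the others, beside a median of 0.29 over 200 probes. On the same measure the members, each a part of that mean, stood at 0.059 (miR-373), 0.072 (miR-371-3p), 0.14 (miR-372) and 0.16 (miR-371-5p). The mean itself changed little across lanes, from -0.076 to 0.16, so that any probe that changes little lies near it. These 5 probes were picked as the nearest of 200, so their order against the members is not read as likeness. miR-372 and miR-371-5p deviated in opposite directions in every lane except NT replicate 3, where they were at 0.33 and 0.10. In NT replicate 1 and shPLEKHA7 replicate 2, miR-372 was at 0.040 and -0.29, and miR-371-5p at -0.27 and 0.20. miR-200c stood at 1022 TMM-normalized counts in both NT lanes and at 926, 951 and 881 in shPLEKHA7 lanes (log2 -0.15, SE 0.12, adjusted p = 0.5).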

How the data were processed

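Per the file headers, the authors deposited a table of raw whole-number counts per probe and lane (654 human and 80 viral miRNA probes, 8 negative and 6 positive controls, 5 mRNAs), and a normalized signal table. In the deposited signal, human miRNA values were raw counts multiplied by a factor common to the lane (100% of values, to a tolerance of 0.3 signal units), viral values equalled the raw count, and the geometric mean of the 5 mRNAs was 1802 in each lane. The exporting software is not given in the sources used here. Its 10 baseline and fold columns were not used.

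Raw counts of miRNA probes above the detection limit (negative-control mean plus 2 SD) in at least 2 lanes, 204 of 734, entered edgeR 4.0.16 (R 4.3.3; TMM, group as the only term, Benjamini-Hochberg over all of them). All 4 members passed, above the limit in all 5 lanes. TMM-normalized counts are raw counts over effective library size times the mean of those sizes. The SE was taken from the F statistic (log2 fold change, unsigned, divided by the root of F). The code was tested on simulated data. Alternatives used DESeq2 1.42.0, limma 3.58.1 (human probes, log2 of deposited values plus a pseudocount of 1 or 10), other scalings and filters, background subtraction with a floor of 1, and a replicate block. P-values measure the spread between these samples.

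Members, related lists, tests and alternatives were chosen with earlier results of these data known. Named probes are the members, all tested relatives, and the 5 nearest lane patterns. Promoters of these genes were not used here.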

Additional observations from a re-analysis of the deposited data

How the results depend on the processing

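None of the 4 members was called under any of the 13 other settings that kept all lanes or the 5 fits that left a lane out (lowest adjusted p 0.0856, miR-372 under spike-in scaling). miR-372, miR-373 and miR-371-3p stayed below 0 in all 18. The unadjusted edgeR p of miR-372 was 0.0426 with scaling factors computed without the 4 probes and 0.0313 with the replicate block. In most of the other settings that kept all lanes it was above 0.05. With shPLEKHA7 replicate 1, 2 or 3 left out, the unadjusted edgeR p of miR-372 was 0.0983, 0.22 and 0.0428. Over the 13 settings miR-372 ran from -0.64 to -0.23, miR-373 from -0.53 to -0.13 and miR-371-3p from -0.42 to -0.014, and with a lane left out from -0.45 to -0.11, from -0.24 to -0.092 and from -0.11 to -0.025. miR-371-5p reversed under spike-in scaling (-0.23) and with no filter (-0.056), and ran from -0.049 to 0.36 with a lane left out. Under spike-in scaling the median of all tested probes moved from 0.059 to -0.27, and relative to it miR-371-5p was 0.046, beside 0.058 under TMM. A value relative to the median hardly depends on a lane-wide scaling, so this likeness is no separate support. The cause of the change with no filter was not tested. The change in the ratio of miR-371-5p to miR-371-3p ran from 0.021 to 0.40 with a lane left out.

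edgeR called 13 of 204 probes, but 6 under the deposited scaling, 20 with total counts, 33 with spike-in scaling, 22 with the replicate block, 21 at an adjusted p under 0.1, and limma called 7 with either pseudocount. With a lane left out the number ran from 0 to 18, with 1 without NT replicate 1 and 0 without NT replicate 3 (34 with an unadjusted p under 0.05 by edgeR), where a lone NT lane is assumed to vary like the shPLEKHA7 lanes. The replicate block gave miR-372 a log2 fold change of -0.23 (edgeR adjusted p = 0.139). The groups share 2 numbers, which no label ties to a common infection, so they were not taken as pairs. Deviations of same-numbered lanes correlated at 0.039 and 0.16 over 204 probes. With 2 against 3 lanes, differences as small as those of the cluster lie within the intervals given.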
